A study of Mus musculus with 3 samples.

Results

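Chemokine ligand genes were followed across the cell types of the mouse iridocorneal angle and limbus, the ring of tissue that holds the trabecular meshwork (TM), Schlemm's canal (SC) and the corneal margin. A gene was a member when its symbol began with *Ccl*, *Cxcl*, *Xcl* or *Cx3cl* and a digit, leaving out *Ccl19*, *Ccl21* and *Ccl27* with their copies. This rule took 32 of 31053 genes, and 44 symbols matched before the exception. At least 1 unique molecular identifier (UMI, 1 counted transcript) was found for 31 members in the kept cells, and 27 reached 200 UMIs or more.

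Single cells were sequenced on the 10x platform in 3 libraries, 2 from control mice (*Angpt1* flox/flox) and 1 from *Angpt1*ΔNC mice (*Angpt1* flox/flox;Wnt1Cre+), all at 6 weeks of age. The controls carried the floxed alleles too, and both genotypes had a mixed background that was crossed onto albino ICR mice. *Wnt1*-Cre recombines in neural crest derivatives, which include the TM and stroma but not the endothelium. Each library pooled eyes of 2 to 3 mice after collagenase and trypsin digestion, so the library is the replicate and *Angpt1*ΔNC has 1.

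Chemokines are small secreted proteins that bind receptors on leukocytes and steer their movement. Ligands of the CXCR2 receptor attract neutrophils, those of CCR2 attract monocytes, those of CCR3 attract eosinophils, and the interferon-induced ligands of CXCR3 attract activated T cells. Others, such as *Cxcl12*, are made without inflammation and hold leukocytes and progenitor cells in place. Many ligands are also induced within hours by nuclear factor kappaB (NF-kappaB) signalling, in stroma and vessels as well as in leukocytes.

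Most members lie in gene clusters. In build GRCm38 (the mm10 genome), 12 members were on chromosome 11 and 10 on chromosome 5. *Ccl2* (chr11:82035571-82037453), *Ccl7*, *Ccl11*, *Ccl12* and *Ccl8* follow each other on chromosome 11, and *Ccl5*, *Ccl9*, *Ccl6*, *Ccl3* and *Ccl4* lie together farther along it. On chromosome 5, *Cxcl5*, *Cxcl3*, *Cxcl1* and *Cxcl2* form one group and *Cxcl9* and *Cxcl10* another. All 32 are annotated as protein coding. Among the 496 pairs of members, 0 shared any 31 bases in a row within the last 500 bases of their transcripts, the part that 3′ counting reads.

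The 4 promoters below are shown because *Cxcl1*, *Cxcl2*, *Cxcl3* and *Cxcl10* are among the most abundant inducible members and their windows hold the motif matches. They are the 250 bases before the start site in RefSeq (GRCm38.p6), written 5′ to 3′ on the gene's own strand: *Cxcl1* chr5:90890995-90891244, *Cxcl2* chr5:90903649-90903898 and *Cxcl3* chr5:90785851-90786100 on the plus strand, and *Cxcl10* chr5:92348890-92349139 on the minus strand. Capitals mark matches, on either strand, to the NF-kappaB letters (GGG, any 3 bases, then TTCC) or the interferon-stimulated response element letters (TTTC, any 2 bases, then TTTC).
Cxcl1: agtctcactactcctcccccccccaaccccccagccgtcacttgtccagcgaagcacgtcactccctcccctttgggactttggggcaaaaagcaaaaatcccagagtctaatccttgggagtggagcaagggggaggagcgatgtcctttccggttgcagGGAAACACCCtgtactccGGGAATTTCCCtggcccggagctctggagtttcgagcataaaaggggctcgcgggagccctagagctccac
Cxcl2: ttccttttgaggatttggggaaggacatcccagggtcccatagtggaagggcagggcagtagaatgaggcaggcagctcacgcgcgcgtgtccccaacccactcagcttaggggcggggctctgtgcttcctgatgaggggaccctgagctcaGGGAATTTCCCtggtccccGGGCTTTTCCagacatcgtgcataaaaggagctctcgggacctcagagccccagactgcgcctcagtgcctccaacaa
Cxcl3: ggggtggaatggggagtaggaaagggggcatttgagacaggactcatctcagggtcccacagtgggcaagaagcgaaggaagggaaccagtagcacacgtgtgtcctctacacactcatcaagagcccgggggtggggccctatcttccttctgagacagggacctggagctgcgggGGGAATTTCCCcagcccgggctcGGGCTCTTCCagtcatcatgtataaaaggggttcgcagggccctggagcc
Cxcl10: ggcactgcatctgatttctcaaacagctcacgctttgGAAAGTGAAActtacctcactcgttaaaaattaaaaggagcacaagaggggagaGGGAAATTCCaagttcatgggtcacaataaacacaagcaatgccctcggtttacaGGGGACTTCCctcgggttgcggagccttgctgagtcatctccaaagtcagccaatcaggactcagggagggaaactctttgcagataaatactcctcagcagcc
In the first 3, overlapping matches on the 2 strands make up the longer run GGGAATTTCCC, and a separate match lies near it. The response element match of *Cxcl10* is the capital run GAAAGTGAAA on the other strand. Over windows of 300 bases (250 before and 50 after the start), the NF-kappaB letters were found in 7 of 23 windows of 22 members, against 5.56% of all 32851 promoter windows. The response element letters were found in 2 of the 23 and in 3.44% of all. *Cxcl10* holds 2 matches of the NF-kappaB letters as well. A match of these letters is a description and not a binding site. No window was at hand for the other 10 members.

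Kept cells numbered 9076 for control replicate 1, 10160 for control replicate 2 and 6772 for *Angpt1*ΔNC, and held 76981606, 80346829 and 66484181 UMIs. From here on, values in threes follow this order of libraries. *Angpt1*, the targeted gene, was at 37.8, 39.3 and 0.391 UMIs per 1,000,000. *Xist*, which female cells express, was at 0.039, 0.0249 and 652 UMIs per 1,000,000, although mixed sexes are described for both genotypes. Genotype and the presence of female cells therefore cannot be told apart in the full libraries. Counts of called members in male-typed cells (a Y-linked UMI and no *Xist*) are given beside the member results of the 6 classes. The fits of single labels, the results for receptors and pathway genes and the differences between classes were not repeated in male-typed cells. This limit holds for all of them. The libraries shared 13 to 25 kept cell barcodes per pair.

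Chemokine ligands made up 0.608%, 0.647% and 0.698% of all UMIs. At least 1 such UMI was found in 82.6%, 85.1% and 88.3% of cells, and in single cells of cluster 24 they reached up to 33.2%, 24.8% and 38.3% of the cell's UMIs. The deposited labels were grouped into 6 classes. The endothelial class was SC, LEC and EC2 to EC4, the stromal class was TM1 to TM11, and cluster 17 stood alone. The epithelial class was clusters 4 and 5 (limbus and cornea). The mural class was clusters 19 to 21 (smooth muscle cells and pericytes), and the myeloid class was clusters 23 to 25. Myeloid cells were 7.06, 8.68 and 8.05% of the cells and held 42.2, 38.9 and 39.1% of the ligand UMIs. Stromal cells held 30, 32.8 and 25% and mural cells 15.7, 14.1 and 3.23%. The mural share in *Angpt1*ΔNC was below both controls, while cluster 17 held 4.16, 7.79 and 14.5% and cluster 18 held 2.56, 2.38 and 14.2%, both above. These shares follow cell numbers as well as levels: mural cells were 11.4, 11.7 and 5.09% of the cells, cluster 17 was 5.13, 9.09 and 13.2% and cluster 18 was 3.32, 1.62 and 7.89%.

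**Figure D1:**
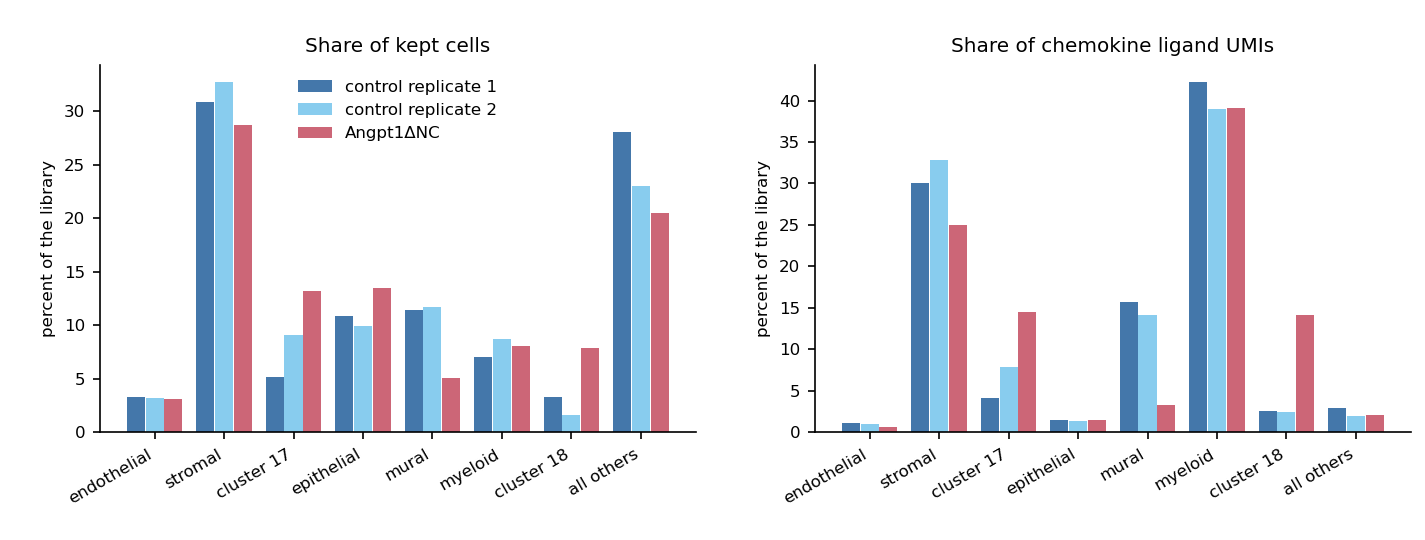
Percent of kept cells (left) and percent of chemokine ligand UMIs (right) in each class of labels, with a bar for each of the 3 libraries. Myeloid cells are under 10% of the cells in every library and hold about 40% of the ligand UMIs, and the mural bar of *Angpt1*ΔNC lies below both controls in both panels.

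Levels below are means over cells of UMIs per 10,000 UMIs of the cell. Labels come from clusters of the same cells, so differences between labels are described and not tested. Marker lists matched the labels that the ligands turn on. Monocyte or macrophage markers summed to 16169.5, 17593 and 16336 UMIs per 1,000,000 in cluster 24 and 20856, 22876 and 22306 in cluster 25. Dendritic cell markers summed to 11441, 8697 and 10735 in cluster 23. Pericyte markers were at 9659, 11011 and 9122 in cluster 20. T cell markers summed to 1174, 1297 and 2013 in cluster 22, and NK cell markers to 2066, 1405 and 1668.

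Neutrophil-attracting CXC ligands were led by *Cxcl2* and *Cxcl1*, with 341835 and 217736 UMIs. *Cxcl2* was highest in cluster 24, at 252, 206 and 292 UMIs per 10,000, and this cluster held 75.5% of its UMIs. It was next highest in the pericytes of cluster 20, at 39, 35.8 and 7.64. All 3 libraries were high in cluster 24, whereas the *Angpt1*ΔNC value in cluster 20 lay far below both controls. *Cxcl1* had its highest level outside the leukocytes, at 101, 99 and 74 in cluster 20, and stood at 49.1, 45.7 and 52.1 in cluster 24 and 48, 52.1 and 25 in the *Cd34*-positive stroma TM10. *Cxcl3* followed *Cxcl2*, with 19.8, 13.3 and 10.4 in cluster 24 and 3.93, 3.75 and 1.34 in cluster 20. *Cxcl5* was stromal and mural, at 6.94, 8.47 and 11.8 in TM11 and 5.05, 6.3 and 6.28 in cluster 20. *Cxcl2* was detected in 97.7, 97.7 and 96% of cells in cluster 24 (median depths 6577, 6554 and 6903 UMIs). In the corneal epithelium of cluster 5 it was detected in 14.3, 20.8 and 23.3% of cells (median depths 21528, 18747 and 20189 UMIs). The parts of free RNA in droplets, of depth and of the epithelium's own transcripts in the latter were not tested.

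**Figure D2:**
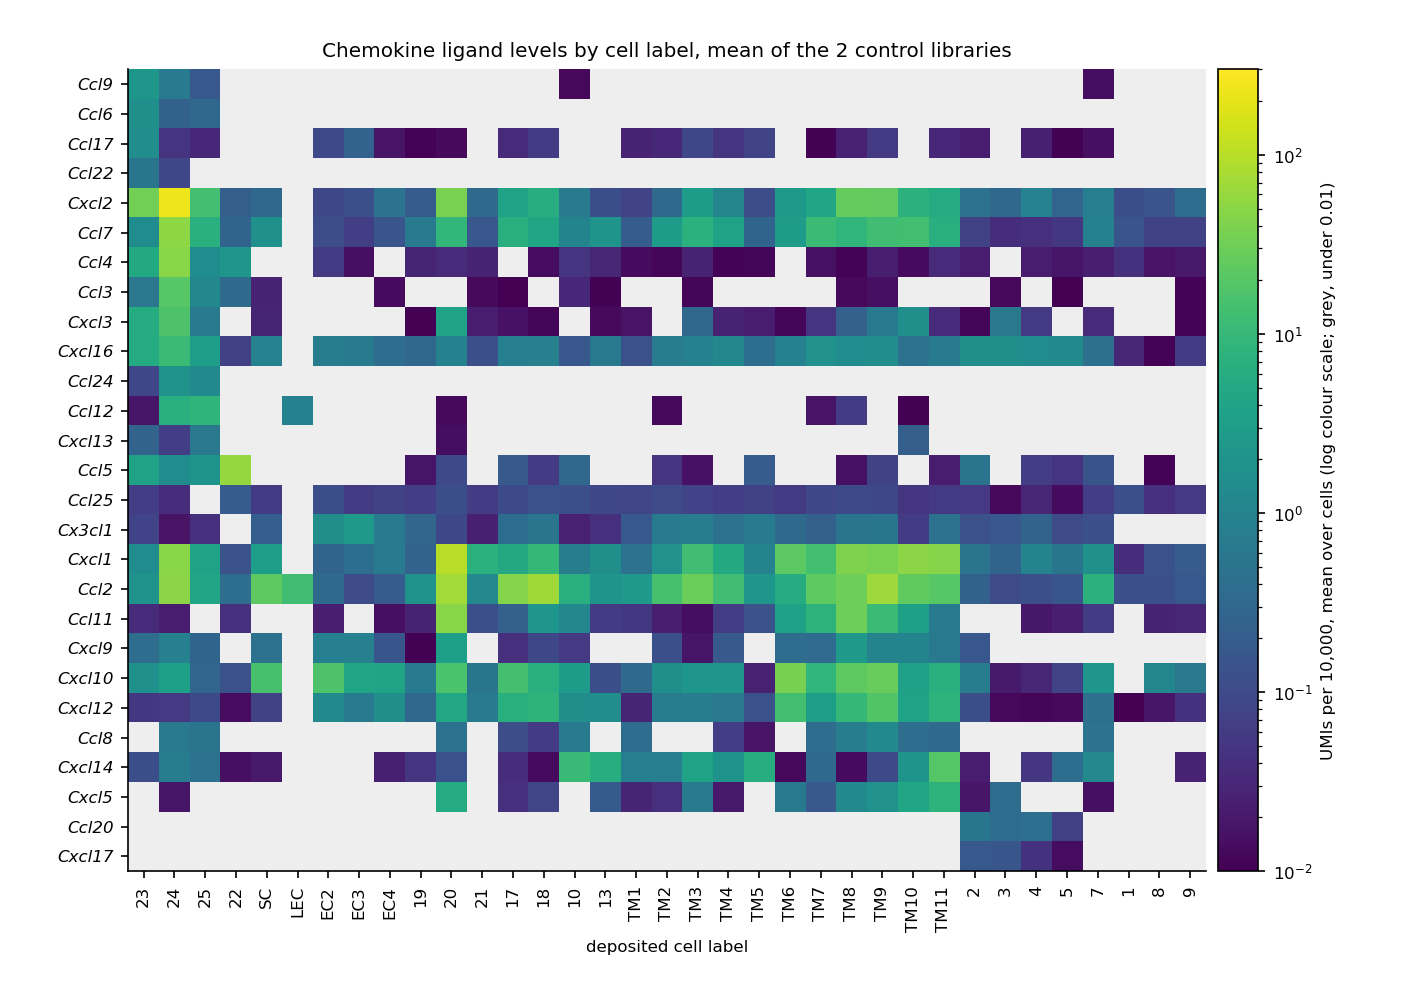
Level of the 27 members with at least 200 UMIs (vertical axis) in each of the 35 deposited labels (horizontal axis), as the mean of the 2 control libraries in UMIs per 10,000 on a log colour scale. *Cxcl2* in cluster 24 is the brightest field, *Ccl2* and *Cxcl1* are spread over mural and stromal labels, and *Ccl20* and *Cxcl17* are seen in the epithelial clusters 2 to 5.

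Monocyte-attracting ligands were led by *Ccl2*, the member with most UMIs (379038), which was found in all 35 labels. By the mean of the controls it was highest in cluster 20, at 88.4, 57.3 and 24.8 UMIs per 10,000. Cluster 18 had 46.8, 90.2 and 116, the uveal stroma TM9 had 70.1, 61.5 and 141 and cluster 17 had 47.4, 45.3 and 90.9. The order of clusters 20 and 18 and TM9 differed between the 2 controls, so these neighbours cannot be ranked, whereas cluster 20 was the lowest of the 4 in *Angpt1*ΔNC. *Ccl7*, another CCR2 ligand, peaked in cluster 24 (58.8, 46.2 and 59) and was at 10.3, 16.1 and 4.02 in TM10. *Ccl12* belonged to the macrophage clusters, with 13.2, 3.91 and 7.29 in cluster 25 and 8.03, 5.03 and 14.6 in cluster 24. *Ccl8* was low throughout, with its highest control level in TM9 (1.29, 1.34 and 0.56).

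The eotaxins act through CCR3. *Ccl11* (eotaxin) was mural and stromal, at 40.1, 54 and 16.5 UMIs per 10,000 in cluster 20, 34.5, 27.7 and 7.95 in TM8 and 14, 8.81 and 2.73 in TM9. In each of these labels the *Angpt1*ΔNC value was under a control value by more than the controls differed. *Ccl24* (eotaxin-2) was instead a macrophage gene, at 1.71, 2.07 and 1.18 in cluster 24 and 1.29, 1.33 and 0.541 in cluster 25. *Ccl26* had 0 UMIs in all 3 libraries.

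The inflammatory CC ligands *Ccl3* to *Ccl6* and *Ccl9* were led by leukocytes. *Ccl4* was at 65, 32.4 and 78.8 UMIs per 10,000 in cluster 24, which held 98% of its UMIs, and *Ccl3* was at 25.5, 15.7 and 47.1 there. *Ccl5* was highest in the lymphocytes of cluster 22 (61.3, 56 and 85), and *Ccl9* and *Ccl6* in cluster 23 (1.4, 3.23 and 3.56 and 1.41, 1.98 and 2.17). The CCR4 ligands *Ccl17* and *Ccl22*, products of mature dendritic cells, were highest in cluster 23 as well, at 1.94, 1.21 and 6.33 and 0.765, 0.348 and 1.52. For both, the *Angpt1*ΔNC library was above the 2 controls.

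The interferon-induced CXCR3 ligands had their highest levels in stroma (*Cxcl10*) and pericytes (*Cxcl9*). *Cxcl10* was at 29.9, 41.2 and 12.6 UMIs per 10,000 in TM6, 21.5, 33.2 and 18.3 in TM9 and 19, 11.2 and 3.27 in SC, against 3.16, 3.78 and 4.93 in cluster 24. *Cxcl9* was lower, with 2.92, 3.69 and 0.813 in cluster 20 and 1.13, 0.684 and 2.11 in the blood endothelium EC3, and 0.688, 1.08 and 0.638 in cluster 24. *Cxcl12*, the CXCR4 ligand, was highest in TM9 (16.2, 20.3 and 15), and *Cxcl14*, which is made by resting epithelium and stroma, in TM11 (18.2, 20.9 and 10.1). Both transmembrane chemokines were also seen. *Cx3cl1* was highest in EC3 (2.62, 2.36 and 3.1), but EC3 held only 13.1% of its UMIs, which were found in 34 labels. *Cxcl16* was at 10.9, 11.2 and 11.3 in cluster 24 and 1.49, 1.88 and 1.8 in the conjunctival epithelium of cluster 3.

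Ligands known from mucosal surfaces and lymphoid tissue were rare. *Ccl20*, the CCR6 ligand of epithelia, was at 0.385, 0.702 and 0.542 UMIs per 10,000 in the cycling limbal cells of cluster 2 and 0.694, 0.155 and 0.589 in the limbal epithelium of cluster 4. In cluster 4 the *Angpt1*ΔNC level lay between 2 unequal controls, while its summed counts (65.8, 15.2 and 74.9 counts per 1,000,000) passed the edgeR test described below. *Cxcl17* was also epithelial (0.159, 0.187 and 0.295 in cluster 2 and 0.249, 0.0721 and 0.329 in cluster 3). *Ccl25*, a thymus and gut ligand of CCR9, was low in many labels and highest in cluster 22 (0.181, 0.221 and 0.224). *Cxcl13*, the CXCR5 ligand that attracts B cells, had 294 UMIs in all and was highest in cluster 25 (0, 1.24 and 0). Of *Xcl1*, made by lymphocytes, 143 UMIs were found, 93% of them in cluster 22, and of *Ccl1* 42, of which 61.9% were there. *Ccl28* had 71 UMIs, the largest part (22.5%) in cluster 4, and *Cxcl15* had 5.

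Across the 35 labels, some neighbouring genes had similar patterns in the controls. The Pearson correlation of log2 levels (0.1 added to the UMIs per 10,000) was 0.967 for *Ccl9* and *Ccl6*, 0.96 for *Ccl3* and *Ccl4*, 0.861 for *Ccl2* and *Ccl7* and 0.817 for *Cxcl2* and *Cxcl1*. The points share libraries, depth and free RNA, and the values are descriptions. Among 13512 genes the 5 most like *Ccl2* were *Ccl7*, *Colec12*, *Cd302*, *Fgl2* and *Cxcl1* (0.777 to 0.861). Those most like *Cxcl2* were *Lacc1*, *Ccl7*, *Cxcl1*, *Slfn8* and *Cxcl3* (0.796 to 0.856), and those most like *Cxcl1* were *Ccl7*, *Abca9*, *Ggt5*, *Cxcl2* and *Sod2* (0.816 to 0.873).

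To compare genotypes, UMIs were summed per library and class and tested with edgeR over all genes that passed its filter on low counts, with Benjamini-Hochberg adjusted p under 0.05 as a call. The sums are given in counts per 1,000,000 (CPM) and fold changes as *Angpt1*ΔNC over control. With 2 libraries against 1 there is 1 residual degree of freedom, and the fit takes the lone *Angpt1*ΔNC library to vary like the controls. P-values rest on the spread between the 2 control pools and on estimates of spread that edgeR shares across genes. They do not measure the spread between animals or between *Angpt1*ΔNC pools. Since classes mix labels, the 31 labels with at least 30 cells in every library were also fitted alone, which gave 58 calls up and 67 down in 423 tests of a member in a label. Over all genes in these labels 2.51% of tests were called higher and 2.45% lower. In 122 of these 125 calls *Angpt1*ΔNC lay outside both controls, and in 118 it still did without the richest cell of each library. In 38 of the 125 calls the fold moved by over 1.5 times when 1 control was left out.

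**Figure D3:**
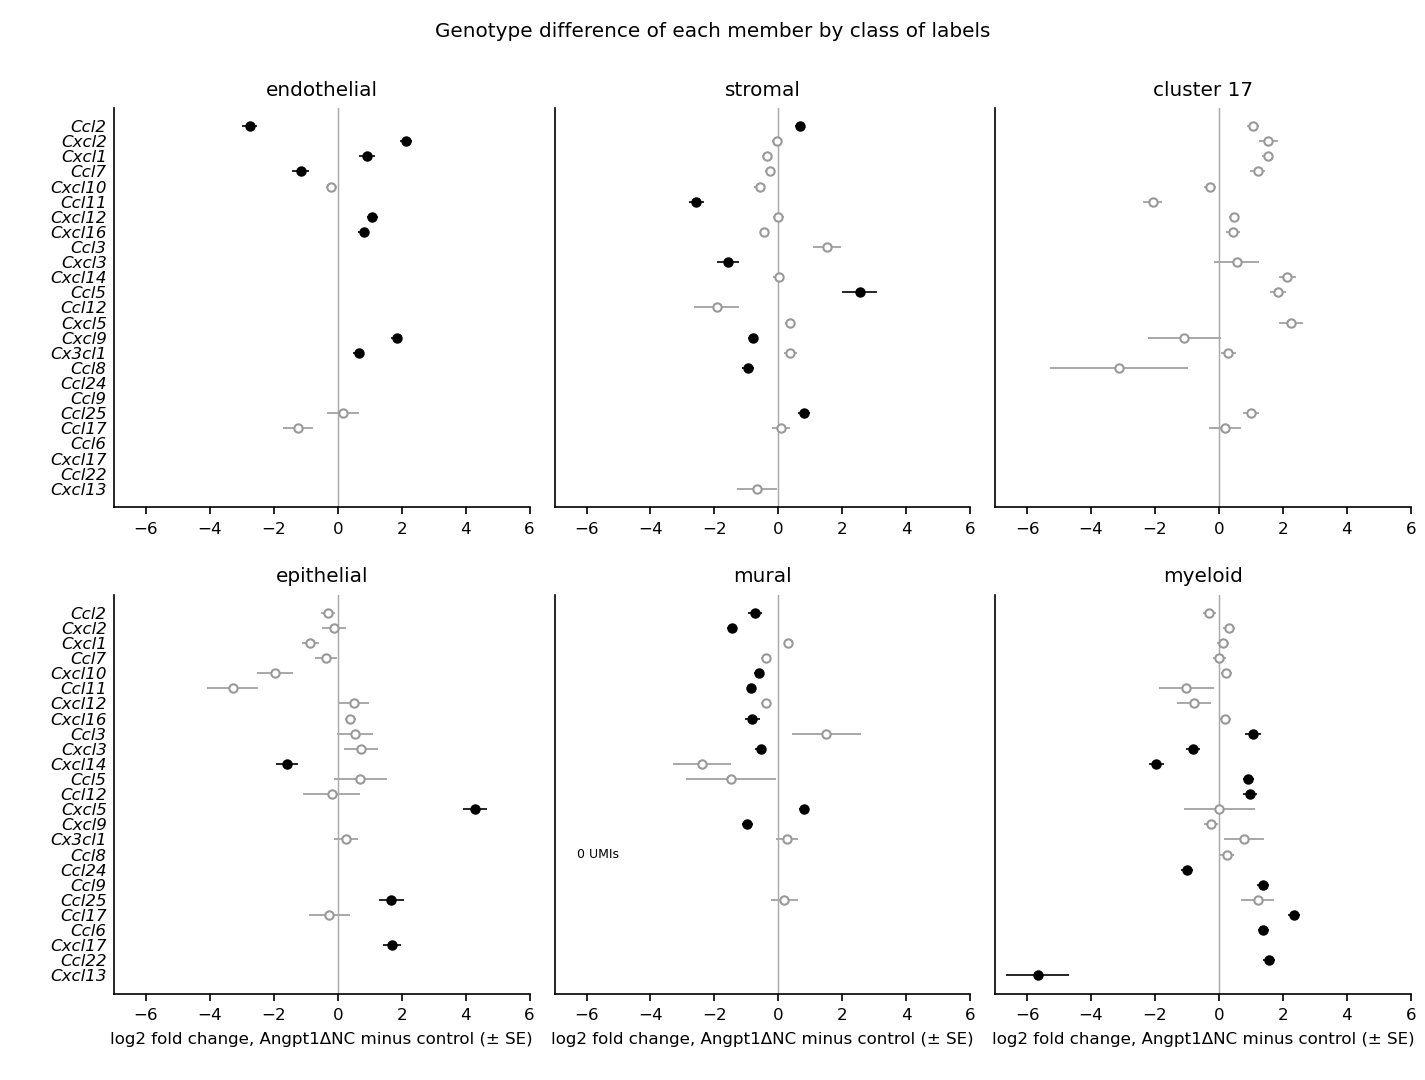
Log2 fold change (*Angpt1*ΔNC over control, horizontal axis) with its SE for each member called in at least 1 class (vertical axis), in 6 classes. Filled points passed an adjusted p of 0.05, open points did not, and genes without a point did not pass the filter on low counts, except mural *Ccl8*, which is marked as 0 UMIs. With it, 8 members were called lower in mural cells, against 6 called higher in endothelial cells, and no point is filled for cluster 17.

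In stromal cells, 7 of 21 members tested were called, where 8.97% of 13942 genes were (3.46% higher and 5.52% lower). *Ccl11*, *Cxcl3*, *Ccl8* and *Cxcl9* fell, and *Ccl2*, *Ccl25* and *Ccl5* rose. *Ccl11* was at 763, 552 and 111 CPM, and its fall was the largest of these (log2 fold change -2.57 ± 0.23 (SE), adjusted p = 0.000429). Both controls were several times the *Angpt1*ΔNC value. *Cxcl3* was at 28.4, 15.3 and 7.27 CPM (log2 fold change -1.58 ± 0.35 (SE), adjusted p = 0.0286), *Ccl8* at 40.8, 32.4 and 18.9 (log2 fold change -0.96 ± 0.18 (SE), adjusted p = 0.0149) and *Cxcl9* at 55.5, 65.7 and 34.9 (log2 fold change -0.80 ± 0.16 (SE), adjusted p = 0.0204). *Ccl2* stood at 2133, 2135 and 3409 CPM, with nearly equal controls (log2 fold change 0.68 ± 0.14 (SE), adjusted p = 0.0218). The class sums follow the mix of labels as well as levels. TM9, rich in *Ccl2*, was 204 of 2803 and 298 of 3324 stromal cells in the controls and 327 of 1946 in *Angpt1*ΔNC. TM8, rich in *Ccl11*, was 591 and 612 cells in the controls and 155 in *Angpt1*ΔNC. *Ccl25* stood at 8.56, 7.74 and 14.2 CPM (log2 fold change 0.80 ± 0.18 (SE), adjusted p = 0.0316). In male-typed cells 9 members were called, 8 of them lower, against 13.1% of genes called and 7.67% called lower. There the change of *Ccl11* was -2.91, adjusted p = 3.08e-09, while that of *Ccl2* was -0.05, adjusted p = 0.885, and *Cxcl9* and *Ccl25* also lost their calls.

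*Ccl11* was lower in every label that called it. Of 16 labels tested alone, *Angpt1*ΔNC lay below both controls in 15 and above both in 0, and 9 were called: clusters 10, 18 and 20, TM4, TM5 and TM7 to TM10. TM8 fell from 3156 and 2749 CPM to 1005 (log2 fold change -1.55 ± 0.17 (SE), adjusted p = 0.000374), and TM9 was at 1469, 923 and 279 (log2 fold change -2.10 ± 0.22 (SE), adjusted p = 2.65e-19). In the Schwann-like cluster 10 the *Angpt1*ΔNC library had 0 UMIs, so that by a floor of 3 counts *Ccl11* was at least 7.12-fold lower. TM5 had 0 UMIs too, against 18 in control replicate 1, all from 1 cell, and 4 in control replicate 2. TM4 was called at 10.2, 4.49 and 0.351 CPM. In the epithelial class, where it was not called, *Ccl11* was at 1.34, 2.39 and 0.183 CPM. The labels share libraries and free RNA, and the part of free RNA in the calls at low counts was not tested. In cluster 18 the log2 fold change of -1.69 ± 0.34 (SE) became -0.84 without control replicate 2.

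*Ccl2* moved in opposite directions in different labels. It was called higher in TM5, TM8 and TM9 and in clusters 21 and 22, and lower in TM1, TM4, TM10 and clusters 13 and 20. In TM8 it was at 3029, 3348 and 11599.6 CPM (log2 fold change 1.86 ± 0.13 (SE), adjusted p = 9.03e-06) and in TM9 at 6782, 5991 and 15256 (log2 fold change 1.26 ± 0.14 (SE), adjusted p = 2.96e-17). In TM10 it was at 1865, 2791 and 616 (log2 fold change -1.92 ± 0.27 (SE), adjusted p = 1.18e-09) and in TM4 at 1259, 1231 and 394 (log2 fold change -1.66 ± 0.20 (SE), adjusted p = 6.71e-05). *Ccl7*, its neighbour on chromosome 11, was called in 8 labels, 4 in each direction: higher in TM5, TM8, TM9 and cluster 21, and lower in TM1, TM4, TM10 and cluster 20. Controls were unequal for *Ccl2* in TM1 (426, 118 and 32.8 CPM) and cluster 21 (197, 62.8 and 502) and for *Ccl7* in TM5 (13.4, 37.9 and 124) and cluster 21 (4.8, 21.8 and 96.8), where leaving out 1 control moved the fold by over 1.5 times. In cluster 22, 1 cell held 75.9% of the *Ccl2* UMIs of *Angpt1*ΔNC.

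**Figure D4:**
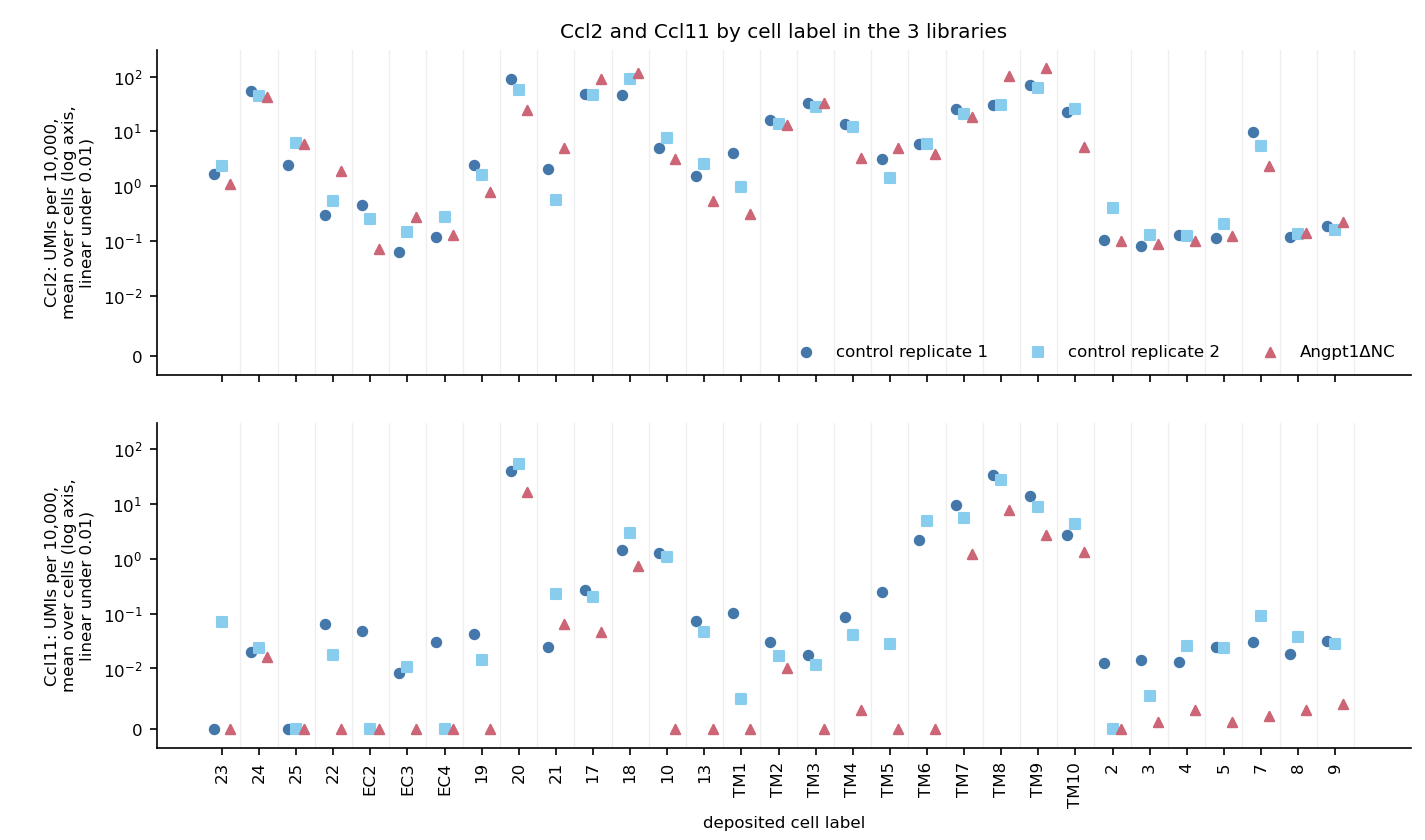
Level of *Ccl2* (top) and *Ccl11* (bottom) in UMIs per 10,000, mean over cells, on a log axis that is linear under 0.01, in the 31 labels with at least 30 cells in every library, with 1 point per library. *Ccl11* in *Angpt1*ΔNC lies under both controls in nearly all labels with a level over 1, whereas *Ccl2* lies above both in TM8 and TM9 and below both in TM4, TM10 and cluster 20.

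TM10, the *Cd34*-positive stroma, had more members called than any other label fitted. Of 15 members tested there, 12 were called, each lower, against 11.6% of 8527 genes called in either direction and 5.81% called lower. *Cxcl14* fell from 138 and 133 CPM to 23.4 (log2 fold change -2.53 ± 0.28 (SE), adjusted p = 3.89e-14). *Cxcl1* was at 4321, 5567 and 2392 CPM (log2 fold change -1.05 ± 0.27 (SE), adjusted p = 0.0031) and *Ccl7* at 1046, 1665 and 442 (log2 fold change -1.61 ± 0.25 (SE), adjusted p = 8.47e-08). *Cxcl3* fell too, but 1 cell held 93.3% of its UMIs in *Angpt1*ΔNC, and for *Cxcl13* the *Angpt1*ΔNC value (47.3, 12.4 and 12.7 CPM) lay between the controls. *Cxcl9* was at 166, 56.4 and 54.9 CPM, and its log2 fold change of -1.04 ± 0.27 (SE) became -0.0386 without control replicate 1. Fibroblast markers in TM10 summed to 7034, 5882 and 8729 UMIs per 1,000,000, with *Angpt1*ΔNC the highest. In TM4, 6 of 15 members were called lower, against 3.66% of genes, and 1 (*Cx3cl1*, 44.5, 44.2 and 81.7 CPM) higher, against 2.86%.

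In mural cells, 9 of 18 members tested were called, where 16.4% of 11606 genes were (9.12% higher and 7.23% lower). In these sums *Cxcl2*, *Ccl11*, *Ccl2*, *Cxcl10*, *Cxcl9*, *Cxcl16*, *Cxcl3* and *Ccl8* fell, and *Cxcl5* rose. Not every mural label fitted alone went the same way. *Cxcl10* was called higher in cluster 19 (64.7, 65.4 and 264 CPM, log2 fold change 2.02 ± 0.19 (SE), adjusted p = 0.000399). *Cxcl10*, *Cxcl2* and *Ccl2* were called higher in cluster 21. *Cxcl2* had 1647, 1334 and 542 CPM (log2 fold change -1.46 ± 0.16 (SE), adjusted p = 7.13e-06), and *Ccl11* had 1635, 1901 and 981 (log2 fold change -0.85 ± 0.14 (SE), adjusted p = 0.000527). The other falls were smaller, with log2 fold changes of -0.97 ± 0.18 (SE) for *Cxcl9*, -0.82 ± 0.23 for *Cxcl16*, -0.73 ± 0.21 for *Ccl2*, -0.59 ± 0.16 for *Cxcl10* and -0.56 ± 0.17 for *Cxcl3*. *Ccl8* had 43 and 177 UMIs in the controls and 0 in *Angpt1*ΔNC, so that by a floor of 3 counts in that library it was at least 10.1-fold lower. The rise of *Cxcl5* (189, 236 and 371 CPM, log2 fold change 0.80 ± 0.15 (SE), adjusted p = 0.00158) became 0.08, adjusted p = 0.805 when each label had the same weight. Cluster 20 was 461 of 1036 and 512 of 1185 mural cells in the controls and 222 of 345 in *Angpt1*ΔNC. The smooth muscle cells of cluster 19 were 387, 499 and 54 of them. The equal weighting called 12 members, each lower, against 10.8% of genes called and 5.44% called lower. In male-typed cells 6 were called, against 13.8% of genes, with *Cxcl2* at -2.30, adjusted p = 6.30e-06, whereas *Cxcl10* (0.35, adjusted p = 0.29) and *Cxcl3* (0.49, adjusted p = 0.244) turned the other way without passing the test.

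The pericytes of cluster 20 had the most mural ligand UMIs per cell. Fitted alone, 11 of its 16 members tested were called, each lower, against 7.67% of 9105 genes called in either direction and 4.21% called lower. All its ligands together were at 349, 306 and 144 per 10,000 UMIs. *Cxcl2* fell from 4274 and 3824 CPM to 846 (log2 fold change -2.26 ± 0.19 (SE), adjusted p = 1.08e-06). *Cxcl9* was at 334, 408 and 112 CPM (log2 fold change -1.72 ± 0.20 (SE), adjusted p = 3.38e-05), *Cxcl10* at 2089, 1775 and 638 (log2 fold change -1.60 ± 0.18 (SE), adjusted p = 2.38e-05) and *Ccl2* at 9858, 6445 and 2858 (log2 fold change -1.51 ± 0.23 (SE), adjusted p = 0.000356). *Cxcl12* was at 424, 445 and 189 (log2 fold change -1.20 ± 0.18 (SE), adjusted p = 0.000324). *Cxcl1* (10624, 10401 and 7225 CPM, log2 fold change -0.54 ± 0.17 (SE), adjusted p = 0.0644) and *Cxcl5* (493, 682 and 607 CPM, log2 fold change 0.05 ± 0.19 (SE), adjusted p = 0.916) were not called. Pericyte markers, given above, were in *Angpt1*ΔNC below both controls by less than the controls differed. In cluster 21, muscle-like mural cells with 69 cells in *Angpt1*ΔNC, 5 of 8 members were called, each higher, against 4.48% of 6870 genes called higher. They were *Cxcl1*, *Cxcl2*, *Cxcl10*, *Ccl2* and *Ccl7*, with *Cxcl10* at 49.2, 76.9 and 191 CPM (log2 fold change 1.60 ± 0.28 (SE), adjusted p = 1.44e-06). *Cxcl1* there was at 672, 693 and 2030.3 CPM (log2 fold change 1.57 ± 0.19 (SE), adjusted p = 7.86e-14), and pericyte markers were at 3127, 2567 and 6784 UMIs per 1,000,000, highest in *Angpt1*ΔNC, and their part in the result was not tested.

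**Figure D5:**
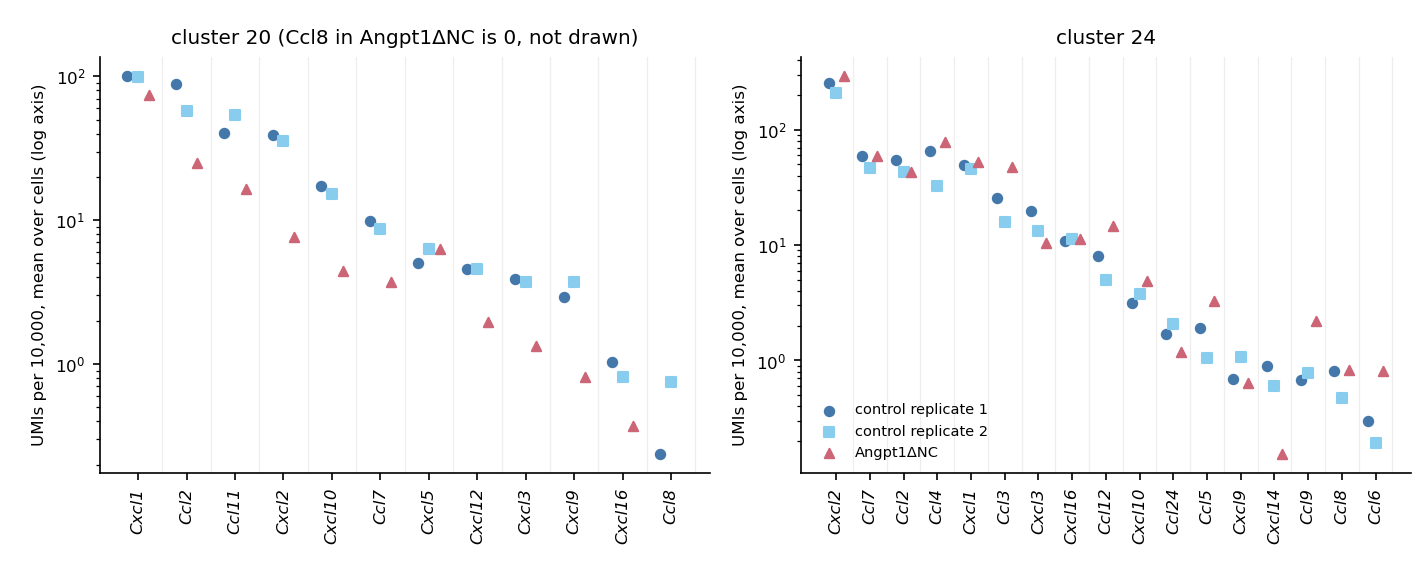
Level of each member with a control mean of at least 0.2 UMIs per 10,000 in cluster 20 (left, 12 members) and cluster 24 (right, 17 members), on a log axis, with 1 point per library. In cluster 20 the *Angpt1*ΔNC points lie below both controls for 11 of the 12 members, *Ccl8* (0, not drawn) among them, and in cluster 24 they lie on both sides.

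In endothelial cells, 8 of 11 members tested were called, where 12.9% of 9660 genes were (8.12% higher and 4.82% lower): *Cxcl2*, *Cxcl9*, *Cxcl12*, *Cxcl1*, *Cxcl16* and *Cx3cl1* rose, and *Ccl2* and *Ccl7* fell. *Cxcl9* rose from 51.8 and 58.6 CPM to 198 (log2 fold change 1.84 ± 0.17 (SE), adjusted p = 3.07e-10), and *Cxcl2* was at 39.1, 31 and 153 (log2 fold change 2.13 ± 0.19 (SE), adjusted p = 9.26e-11). *Cxcl12* was at 80.4, 94.4 and 186 CPM (log2 fold change 1.09 ± 0.17 (SE), adjusted p = 9.98e-06). *Cxcl1* was at 123, 51.6 and 163 CPM (log2 fold change 0.92 ± 0.24 (SE), adjusted p = 0.00812), with unequal controls, and its log2 fold change was 1.66 without control replicate 1 and 0.41 without control replicate 2. The log2 fold changes were 0.81 ± 0.18 (SE) for *Cxcl16* and 0.66 ± 0.16 for *Cx3cl1*. The rise of *Cxcl9* was called in each of EC2, EC3 and EC4 alone, in EC3 at 83.8, 81.5 and 183 CPM (log2 fold change 1.15 ± 0.24 (SE), adjusted p = 0.000887). In male-typed cells, however, of which *Angpt1*ΔNC had 66, 5 members were called, against 11.6% of genes, and *Cxcl9* was at -0.24, adjusted p = 0.707, while *Cxcl2* (2.23, adjusted p = 4.45e-21), *Cxcl12* and *Cxcl1* stayed higher. Monocyte or macrophage markers in EC3 were at 27.3, 9.45 and 22 UMIs per 1,000,000.

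The endothelial fall of *Ccl2* (543, 354 and 66.3 CPM, log2 fold change -2.76 ± 0.23 (SE), adjusted p = 1.75e-11) lay mostly in the counts of SC cells. Of the endothelial *Ccl2* UMIs, SC held 1424 of 1447, 1039 of 1119 and 32 of 112, from 46, 63 and 15 cells. There *Ccl2* was at 32.1, 14.6 and 2.29 UMIs per 10,000, and in EC3 it was 0.0633, 0.146 and 0.278, close to the 0.111, 0.201 and 0.123 of the corneal epithelium. In SC, *Cxcl10* was at 19, 11.2 and 3.27 and *Ccl7* at 1.76, 1.74 and 0.0748, both lowest in *Angpt1*ΔNC. Over the class *Ccl7* was at 40.2, 42.1 and 18.4 CPM (log2 fold change -1.16 ± 0.27 (SE), adjusted p = 0.00229). With 15 cells SC was not fitted alone, and the parts of fewer SC cells and of less *Ccl2* in each in the class value were not tested.

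In myeloid cells, 11 of 25 members tested were called, where 5.53% of 9883 genes were (3.09% higher and 2.45% lower). *Ccl17*, *Ccl22*, *Ccl6*, *Ccl9*, *Ccl3*, *Ccl12* and *Ccl5* rose, each a CC ligand, and *Cxcl13*, *Cxcl14*, *Ccl24* and *Cxcl3* fell. *Ccl17* was at 41.2, 27 and 170.4 CPM (log2 fold change 2.34 ± 0.19 (SE), adjusted p = 2.63e-08) and *Ccl22* at 19.5, 15.6 and 51.5 (log2 fold change 1.57 ± 0.20 (SE), adjusted p = 2.05e-05). *Ccl9* was at 71.6, 109.8 and 239 (log2 fold change 1.39 ± 0.19 (SE), adjusted p = 6.30e-05) and *Ccl6* at 39.2, 39.1 and 103 (log2 fold change 1.39 ± 0.16 (SE), adjusted p = 6.30e-06). *Ccl12* was at 728, 453 and 1161 (log2 fold change 0.98 ± 0.21 (SE), adjusted p = 0.00657) and *Ccl5* at 234, 186 and 397 (log2 fold change 0.92 ± 0.18 (SE), adjusted p = 0.00208). *Ccl3* rose (2341, 1227 and 3732 CPM, log2 fold change 1.06 ± 0.24 (SE), adjusted p = 0.00829), although its controls differed widely from each other. Its neighbour *Ccl4*, whose controls differed even more (5947, 2429 and 6241 CPM), was not called (log2 fold change 0.58 ± 0.29 (SE), adjusted p = 0.303).

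Among the myeloid falls, *Ccl24* was at 162, 169.9 and 82.8 CPM (edgeR adjusted p = 0.00087) and *Cxcl14* at 79.6, 52.9 and 16.9 (log2 fold change -1.95 ± 0.24 (SE), adjusted p = 1.58e-05). *Cxcl3* was at 1753, 1117 and 813 (log2 fold change -0.82 ± 0.22 (SE), adjusted p = 0.0316). *Cxcl13* had 24 UMIs in 3 cells, 141 in 3 cells and 1 UMI, so its call rests on few cells. In male-typed cells, 143 in *Angpt1*ΔNC, only *Ccl5*, *Ccl6* and *Ccl24* were called, against 0.511% of genes, and the other 8 had the same direction as in all cells, *Ccl17* at 2.66, adjusted p = 0.173. The most abundant myeloid ligand, *Cxcl2* (21569.6, 15682 and 23137 CPM, log2 fold change 0.31 ± 0.18 (SE), adjusted p = 0.396), and *Ccl2* (5107, 3596 and 3533 CPM, log2 fold change -0.30 ± 0.20 (SE), adjusted p = 0.485) were not called. In cluster 24 alone, 6 members rose and 3 fell, against 2.57% and 1.91% of 9454 genes. *Ccl9* there was at 66.4, 73.9 and 221 CPM (log2 fold change 1.65 ± 0.15 (SE), adjusted p = 3.19e-05), and its monocyte or macrophage markers in *Angpt1*ΔNC lay between the controls. *Ccl17* was called in cluster 23 (279, 141 and 876 CPM, log2 fold change 2.08 ± 0.37 (SE), adjusted p = 0.0452), and the dendritic cell markers of that cluster in *Angpt1*ΔNC lay between the controls.

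In cluster 17, none of 18 members tested was called by edgeR in all kept cells, where 0.288% of 11444 genes were (0.175% higher and 0.114% lower), but 11 had an unadjusted p under 0.05, as had 20.4% of all genes. The count depended on the setting: edgeR called 7 of 15 in male-typed cells (4.77% of all genes) and 9 of 17 at equal depth (6.76%), and DESeq2 called 4 (2.4%). *Ccl2* was at 4599, 4625 and 9557 CPM (log2 fold change 1.05 ± 0.19 (SE), adjusted p = 0.1) and *Cxcl1* at 424, 509 and 1346 (log2 fold change 1.53 ± 0.18 (SE), adjusted p = 0.0597), both far above 2 close controls. *Ccl11* was at 23.1, 19.1 and 4.93 (log2 fold change -2.07 ± 0.30 (SE), adjusted p = 0.0789). Smooth muscle markers in this cluster were at 1884, 1024 and 596 UMIs per 1,000,000, lowest in *Angpt1*ΔNC, and their part in these values was not tested. In cluster 18, 6 of 16 members were called, where 3.22% of 8724 genes were, with *Cxcl2* up (477, 782 and 1865 CPM, log2 fold change 1.57 ± 0.25 (SE), adjusted p = 4.94e-05) and *Cxcl10* down (549, 918 and 231 CPM, log2 fold change -1.66 ± 0.29 (SE), adjusted p = 0.000181).

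In epithelial cells, 4 of 21 members tested were called, where 5.72% of 12341 genes were (2.81% higher and 2.91% lower). *Cxcl5*, *Cxcl17* and *Ccl25* rose and *Cxcl14* fell, all from low levels. *Cxcl17* was at 2.54, 2.56 and 8.28 CPM (log2 fold change 1.70 ± 0.27 (SE), adjusted p = 0.0124) and *Cxcl14* at 33.3, 18.7 and 8.59 (log2 fold change -1.60 ± 0.34 (SE), adjusted p = 0.0365). *Ccl25* was at 1.3, 2.39 and 5.85 (log2 fold change 1.68 ± 0.39 (SE), adjusted p = 0.0478). *Cxcl5* had 8, 7 and 127 UMIs, the last in 16 of 911 cells with 1 cell holding 38.6% of them, and stood at 0.356, 0.169 and 4.53 UMIs per 1,000,000 without the richest cell of each library. In male-typed cells *Cxcl5* and *Cxcl17* were called, against 3.85% of genes, and the other 2 were not.

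Some calls rested on few cells. In stromal cells *Ccl5* was at 0.957, 5.49 and 19.3 CPM (log2 fold change 2.54 ± 0.56 (SE), adjusted p = 0.0275), from 18, 122 and 300 UMIs in 11, 21 and 28 cells, and its log2 fold change was 1.81 without control replicate 1 and 4.32 without control replicate 2. In TM3 all 55 *Ccl5* UMIs of *Angpt1*ΔNC came from 1 cell, and in TM7 1 cell held 92.9% of 84. T cell markers summed to under 3 UMIs per 1,000,000 in the stromal class of every library. In cluster 22, 6 of 12 members rose, against 2.62% of genes, but 1 cell held 95.5% of the *Cxcl2* UMIs there and 85.4% of those of *Ccl3* in *Angpt1*ΔNC. *Xcl1* fell there (109.6, 226 and 64.5 CPM, log2 fold change -1.42 ± 0.38 (SE), adjusted p = 0.00768), with 6, 14 and 7 positive cells, and its log2 fold change was -0.76 without control replicate 2.

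Receptors and scavengers of chemokines were measured with 23 genes, of which 11 had at least 200 UMIs. *Ccr1* and *Cxcr4* were highest in cluster 23 and *Ccrl2* and *Cx3cr1* in cluster 24, while *Ccr7*, *Ccr2* and *Cxcr6* were highest in the lymphocytes of cluster 22. *Ackr3*, which takes up *Cxcl12*, was highest in TM10 (4.29, 4.47 and 7.98 UMIs per 10,000), as was *Ackr1*. *Ackr2*, a scavenger of CC ligands, was highest in the few LEC cells. Between genotypes *Ackr3* rose in stromal cells (65.9, 67.3 and 113 CPM, log2 fold change 0.76 ± 0.14 (SE), adjusted p = 0.014) and in mural cells (log2 fold change 0.99 ± 0.19 (SE), adjusted p = 0.00181), together with *Ccrl2* in the latter. In endothelial cells *Ackr2* fell (135, 114 and 34.9 CPM, log2 fold change -1.83 ± 0.22 (SE), adjusted p = 9.62e-08). *Ackr1* rose there, with very unequal controls (1.13, 13.3 and 26 CPM, log2 fold change 1.77 ± 0.47 (SE), adjusted p = 0.00856). In myeloid cells *Ccr1* and *Ccr7* rose (103, 85.8 and 235 CPM for *Ccr7*, log2 fold change 1.33 ± 0.17 (SE), adjusted p = 2.05e-05). The call of *Cx3cr1* in cluster 17 came from 95 UMIs in 7 *Angpt1*ΔNC cells. Over the list, 1 of 5 genes tested rose in endothelial cells, 1 of 11 in stromal cells, 2 of 4 in mural cells, 2 of 13 in myeloid cells and 0 of 7 in epithelial cells, where 8.12%, 3.46%, 9.12%, 3.09% and 2.81% of all genes rose.

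Genes of inducing pathways were counted from fixed lists in the same fits. Of the 20 interferon response genes tested in endothelial cells, 14 rose and 1 fell, with a median log2 change of 0.92 against -0.02 over all genes. In mural cells 8 of 20 rose and 0 fell (median 0.72 against -0.05). *Cxcl9* and *Cxcl10*, known targets of interferon, fell in the mural sums, but *Cxcl10* was called higher in clusters 19 and 21 fitted alone. In stromal cells 4 of 21 interferon response genes rose and 2 fell (median -0.11), and in myeloid cells 2 of 21 rose and 1 fell (median 0.07). In cluster 17, 1 of 21 rose and 0 fell (median 0.59), and 0 of 18 were called in epithelial cells (median 0.02). NF-kappaB response genes were called up for 9 and down for 1 of 20 in endothelial cells (median 0.44), up for 1 and down for 6 of 22 in stromal cells (median -0.45), up for 6 and down for 4 of 19 in mural cells (median 0.09) and up for 5 and down for 1 of 20 in epithelial cells (median 0.09). They were up for 0 and down for 2 of 21 in myeloid cells, and 0 of 18 were called in cluster 17. Genes that tissue dissociation is known to induce, 16 in all, fell in 8 cases in epithelial and 6 in mural cells and rose in 0 in both, and 4 rose and 2 fell in endothelial cells. Over all genes 8.12% were called higher and 4.82% lower in endothelial, 9.12% and 7.23% in mural, 3.46% and 5.52% in stromal, and 2.81% and 2.91% in epithelial cells. In myeloid cells these shares were 3.09% and 2.45%, and in cluster 17 they were 0.175% and 0.114%. Whether the genes of these lists had a part in the ligand differences was not tested.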

How the data were processed

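The authors deposited a matrix of raw UMI counts per gene and cell for each of the 3 libraries, with tables that give each kept cell a label. Per the file headers the matrices came from Cell Ranger 3.0.2, while the submitters' processing notes name version 2.1.1 and the mm10 build. The authors removed cells under 200 genes, under 1000 UMIs or over 10% mitochondrial UMIs, removed doublets with scDblFinder and integrated cells in Seurat 3.1.3. The deposited integrated expression values are on another, natural log scale and were not used. Depths are given with the results.

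UMIs were summed over kept cells per library and class or label and tested with the edgeR 4.0.16 quasi-likelihood test (TMM, filterByExpr, R 4.3.3) over all genes, with Benjamini-Hochberg adjustment. On simulated data the script recovered 93% to 99% of 4-fold and 34% to 71% of 2-fold changes over the 6 classes, with up to 7.36% of calls false. The simulation gave all genes of a class the same spread in every library. Its false share does not cover differences in sex, cell mix or dissection of the lone *Angpt1*ΔNC pool. Alternatives were DESeq2 1.42.0, its size factors, no filter, equal weight per label, male-typed cells only and 1 control left out. Fits of single labels were added after levels had been seen. Members with at least 200 UMIs or a class call were given with values, those with 20 to 199 by total, and receptors with at least 200 UMIs by name, except 1 that is not reported here. The members and lists were chosen with earlier results of these data known. A share of cells covers counting error only.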

Additional observations from a re-analysis of the deposited data

Results flagged for a closer look

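Genotype effects of 11 member and class pairs differed between classes by an interaction term fitted across all genes in edgeR (adjusted p from 8.3e-96 to 0.0358), out of 17 pairs in which a member was called in both classes. Over all genes the interaction was called for 0.704% to 8.22% in the 8 pairs of classes. The 17 pairs were picked by calls in the same counts, and in 6 of them the directions were opposite. Their count is therefore a description and cannot be weighed against the share over all genes. This fit too has 1 residual degree of freedom. The differences are log2 fold changes (*Angpt1*ΔNC over control) of the first class minus those of the second. For *Ccl2* the stromal minus endothelial difference was 3.38, the mural minus endothelial one was 2.02 and the mural minus stromal one was -1.42. For *Cxcl9* the stromal effect minus the endothelial one was -2.66 and the mural minus the endothelial one was -2.84. Mural minus endothelial differences were -3.61 for *Cxcl2* and -1.65 for *Cxcl16*. In the class sums *Ccl11* fell more in stromal than in mural cells (mural minus stromal 1.64). Fitted alone, its log2 fold change was -1.61 in cluster 20, -1.42 in TM10, -1.55 in TM8, -2.10 in TM9 and -2.53 in TM7. TM4 and TM5, with few counts, fell more. The part of the mix of labels in the class difference was not tested. Myeloid minus stromal differences were 0.76 for *Cxcl3* and -1.62 for *Ccl5*, the latter from 18, 122 and 300 stromal UMIs. For *Cxcl5* the mural minus epithelial difference was -3.42. None of these differences was refitted in male-typed cells, where the endothelial rise of *Cxcl9* and the stromal rise of *Ccl2* were not seen.

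Called cells that were not kept carry no label and entered no comparison. In them 6 members were at least 2 times as high in *Angpt1*ΔNC as in either control, in UMIs per 1,000,000. *Ccl3* was at 202.7 against 79.1 and 38.2, *Ccl12* at 59.6 against 21.2 and 17.7, and *Ccl8* at 38.2 against 14.2 and 15.5. *Ccl9* was at 10.1 against 4.18 and 4.42, *Ccl17* at 8.81 against 2.70 and 2.72, and *Ccl6* at 6.38 against 1.73 and 3.01. With 1 *Angpt1*ΔNC library these were not tested.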

How the results depend on the processing

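The 39 member calls by class were recomputed 272 times: 234 values kept their direction and their side of the threshold, 34 kept the direction only (17 in male-typed cells, 15 with DESeq2 and 2 with equal weight per label) and 4 turned, all in male-typed cells. Those were *Cxcl9* in endothelial (-0.24), *Ccl2* in stromal (-0.0495) and *Cxcl3* (0.49) and *Cxcl10* (0.35) in mural cells, none past the threshold. Members called in endothelial cells numbered 8, with 5 in male-typed cells and 4 with DESeq2. In cluster 17 the count was 0, with 9 at equal weight, which for 1 label amounts to equal depth, 7 in male-typed cells and 4 with DESeq2. Epithelial calls were 4, with 8 without the filter, 8 at equal weight, 2 in male-typed cells and 2 with DESeq2. Mural calls were 9, with 5 by DESeq2. Myeloid calls were 11, with 3 in male-typed cells and 7 by DESeq2. The cause of these shifts was not tested.

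Leaving out 1 control leaves no residual degree of freedom, so folds only were compared. In single labels 248 of 250 such folds kept their direction, and *Cxcl13* in TM10 (-1.85 to 0.0324, the latter without control replicate 1) and *Cxcl9* in TM9 (-2.22 to 0.0384, the latter without control replicate 2) turned. The label with the highest control level changed for *Ccl2* (18 for 20) and *Ccl12* (24 for 25) without control replicate 1, and for *Ccl20*, *Cxcl13* and *Cxcl17* without control replicate 2. No paired analysis was possible because the labels give the genotypes no shared replicate numbers and *Angpt1*ΔNC has 1 library.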
